A study of Homo sapiens with 6 samples.

Results

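The NRF2 glutathione and thioredoxin genes described here are 10 genes chosen by name: GCLM, GCLC, SLC7A11, GSR, GPX2, TXNRD1, NQO1, SRXN1, TXN and NFE2L2. They are 10 of the 54261 genes in the count table, and 9 of them were among the 15614 genes with enough counts to be tested. They were chosen with earlier results of these data known. A549 is an established cell line from a human lung adenocarcinoma. It was given siRNA against SNHG17, a long noncoding RNA (si-SNHG17, 3 libraries), or control siRNA (si-NC, 3 libraries). All 6 libraries are of this single line, which is known to carry a loss-of-function mutation of KEAP1, so both groups share that background. The siRNA sequences, the time after transfection and the number of cultures are not stated in the labels, so p-values measure the spread between libraries, which may be technical.

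NRF2, the product of NFE2L2, is a transcription factor that binds antioxidant response elements together with a small MAF protein and drives genes for glutathione, thioredoxin and NADPH metabolism. KEAP1 normally holds NRF2 for degradation through the CUL3 ubiquitin ligase, and BACH1 competes with NRF2 at many of the same elements. Lung tumours and lines with mutated KEAP1, A549 among them, are known for constantly high levels of NRF2 targets.

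After SNHG17 knockdown the members split 3 ways. GCLM, GPX2, SRXN1, GCLC and NQO1 fell, NFE2L2 itself rose, and SLC7A11, GSR and TXN did not pass the test. The row of TXNRD1 held too few reads to be compared. In all, 5 of the 9 members tested were lower and 1 was higher at an adjusted p under 0.05 by edgeR's quasi-likelihood test, against 39.1% of all genes tested in either direction, 19.6% lower and 19.6% higher. In bulk RNA, fewer cells with a transcript and less of it per cell cannot be told apart. The libraries of the 2 groups did not overlap for 6 of the 9, the same 6 genes, against 49.4% of all genes tested (25.1% higher and 24.3% lower). The median log2 fold change (si-SNHG17 minus si-NC, here and throughout) was -0.23 over these 9 members and 0.01 over all genes tested. The share of all gene counts that fell on the 10 members was 0.453% ± 0.00899 in si-SNHG17 libraries and 0.531% ± 0.00535 in si-NC libraries (SD, n = 3 each). This share weighs each gene by its counts, and NQO1, the member with the most counts, weighs the most.

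The libraries held 8643076 to 12477214 counts, and a count of 0 allowed up to 3 counts, or 0.240 to 0.342 CPM (counts scaled to a library size of 1000000, after TMM), an allowance for counting error only. The targeted gene SNHG17 had 7.82, 8.39 and 11.3 CPM in si-SNHG17 libraries, against 38.7, 36.2 and 51.4 CPM in si-NC libraries. Of 6 epithelial markers, all 6 were tested. The keratins KRT7, KRT8 and KRT18 were abundant, with means of 4944, 2530 and 2280 CPM in si-SNHG17 and 4086, 4257 and 4355 CPM in si-NC. EPCAM had 0.950 ± 0.491 CPM in si-SNHG17 and 1.53 ± 0.202 CPM in si-NC, and was not called. KRT7 (log2 fold change 0.27) and KRT19 (0.43) were called higher, and KRT8 (-0.75), KRT18 (-0.93) and CDH1 (-0.53) were called lower. Of 5 alveolar type II markers, SFTPB and SFTPA1 had no read and the summed level of all 5 was 2.73 to 3.34 CPM in si-SNHG17 and 1.78 to 2.06 CPM in si-NC. The immune markers PTPRC and CD3E had no read; of 4 immune markers, CD14 was the one tested, and their summed level was 18.6 to 21.6 CPM in si-SNHG17 and 31.2 to 43.6 CPM in si-NC. Of 5 stromal and endothelial markers COL1A1 was the one tested, COL3A1 had no read, and the summed level was 22.3 to 29.7 CPM in si-SNHG17 and 21.4 to 28.6 CPM in si-NC. Mitochondrially encoded genes took 4.33% ± 0.187 of the reads in si-SNHG17 and 7.79% ± 0.470 in si-NC; normalizing without them left the calls of all 9 members as they were.

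Upstream sequence is shown for GCLM and GPX2, the 2 members with the largest falls, each of which holds the core of an antioxidant response element near its start. The core TGACNNNGC was searched on both strands from 250 bases before to 50 bases after the start that the RefSeq promoter table uses, in RefSeq sequences of GRCh38.p14. Of the 10 members, 8 had an entry, and 3 of these 8 held the core, namely GCLM, GPX2 and TXNRD1. The core was in 13.6% of all 27305 promoters of that length and in 15.0% of the 14146 whose genes had a count here. None of the matches in these 3 members overlapped the AP-1 site TGACTCA, which was also searched on both strands. That site was in 4.92% of all promoters and in 3.80% of those whose genes had a count here. GCLC, NQO1, SRXN1 and TXN had no match in this window, which says nothing of elements further away. The window of NFE2L2, 177264082 to 177264381 on chromosome 2, lies around a start inside the gene and not at its outermost end, and it had no match either. The 150 bases before the start are shown for GCLM and GPX2, 5′ to 3′ on the gene's own strand, with the core in capitals; in both the core reads on the opposite strand.
GCLM, chr1:93909431-93909580, minus strand: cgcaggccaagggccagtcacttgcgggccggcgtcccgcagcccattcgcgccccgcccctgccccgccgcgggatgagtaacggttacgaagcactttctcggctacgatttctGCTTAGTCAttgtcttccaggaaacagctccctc
GPX2, chr14:64942746-64942895, minus strand: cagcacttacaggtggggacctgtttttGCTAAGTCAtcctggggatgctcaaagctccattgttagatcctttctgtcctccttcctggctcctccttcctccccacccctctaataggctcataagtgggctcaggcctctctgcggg
The GCLM core lies at positions -34 to -26 from the start and reads TGACTAAGC on the strand opposite to the gene. The GPX2 core lies at positions -122 to -114 and reads TGACTTAGC on the strand opposite to the gene. TXNRD1 held 2 cores, which read TGACTTCGC and TGACGGAGC. A match is a description of the sequence and shows no binding.

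GCLM and GCLC encode the modifier and the catalytic subunit of glutamate-cysteine ligase, the enzyme of the rate-limiting step of glutathione synthesis. GCLM (chromosome 1, 93885199 to 93909430 in RefSeq GRCh38.p14) had 161, 187 and 202 counts (16.8, 14.9 and 23.0 CPM) in si-SNHG17 libraries, against 604, 750 and 692 counts (68.8, 74.0 and 64.8 CPM) in si-NC libraries. Every si-SNHG17 library was far below every si-NC library. The mean was 18.2 ± 4.23 CPM in si-SNHG17 and 69.2 ± 4.59 CPM in si-NC (SD, n = 3 each), so that 26.4% was left. Its log2 fold change of -1.93 had a standard error of 0.139 (95% interval -2.23 to -1.64, adjusted p = 1.79e-07 by edgeR), and 1.26% of all genes tested changed by at least as much in either direction.

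GCLC (chromosome 6, 53497341 to 53545101) fell less. It had 50.3, 51.5 and 58.9 CPM in si-SNHG17 libraries, against 81.1, 75.7 and 76.3 CPM in si-NC libraries, and the groups did not overlap. Its log2 fold change of -0.54 had a standard error of 0.0926 (adjusted p = 0.000412 by edgeR), a level of 68.9% of control. Its RefSeq antisense neighbour GCLC-AS1 overlaps the gene, and whether the counting used strand is not given in the sources used here.

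The balance of the 2 transcripts was compared within each library, which does not depend on how library sizes are scaled. The counts were not corrected for gene length, and the subunit proteins were not measured in these files. The ratio of GCLM to GCLC counts was 0.334, 0.290 and 0.391 in si-SNHG17 libraries, against 0.848, 0.977 and 0.849 in si-NC libraries. All 3 si-SNHG17 ratios were below all 3 si-NC ratios. The geometric mean was 0.336 in si-SNHG17 and 0.889 in si-NC, a log2 difference of -1.40. The exact two-sided permutation test gave p = 0.1, the smallest that 3 against 3 libraries allow.

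**Figure D1:**
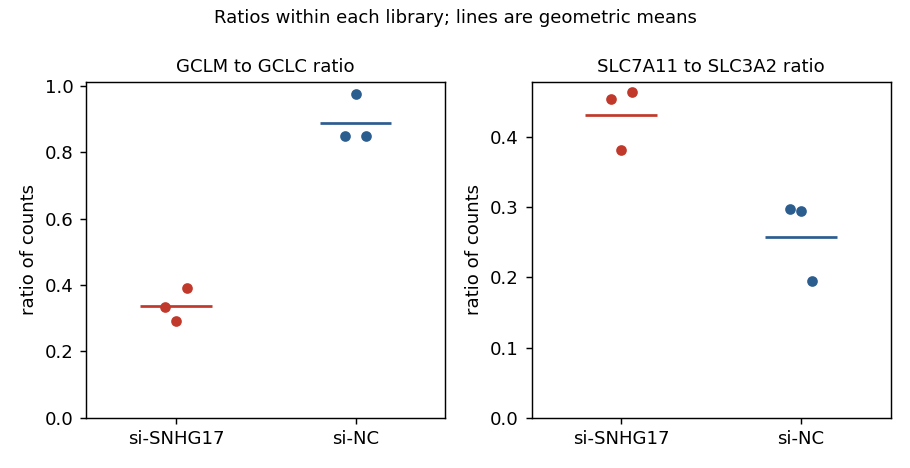
Ratio of read counts within each library (vertical axes, no unit) for GCLM over GCLC on the left and SLC7A11 over SLC3A2 on the right; points are libraries and lines are geometric means. The GCLM to GCLC ratio lay at 0.290 to 0.391 in si-SNHG17 and 0.848 to 0.977 in si-NC, and the SLC7A11 to SLC3A2 ratio at 0.382 to 0.465 in si-SNHG17 and 0.194 to 0.297 in si-NC.

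SLC7A11 is the light chain of the exchanger that brings in cystine, the source of cysteine for glutathione, in trade for glutamate. The gene (chromosome 4, 138164097 to 138242349) had 135.2, 125.0 and 146.9 CPM in si-SNHG17 libraries, against 146.2, 149.6 and 113.0 CPM in si-NC libraries. The groups overlapped, with the lowest and the highest value both in si-NC libraries. The log2 fold change was -0.01 with a 95% interval of -0.23 to 0.22 (adjusted p = 0.97 by edgeR), so a change of more than 1.17-fold upward lay outside the interval. Its heavy chain partner SLC3A2, which anchors the exchanger in the membrane and pairs with other amino acid transporters too, fell to 313.7 ± 15.0 CPM in si-SNHG17, against 527.0 ± 47.7 CPM in si-NC (log2 fold change -0.75, adjusted p = 8.32e-06 by edgeR). The ratio of SLC7A11 to SLC3A2 counts was 0.454, 0.382 and 0.465 in si-SNHG17 libraries, against 0.297, 0.295 and 0.194 in si-NC libraries, a log2 difference of 0.75. The groups did not overlap, and the exact two-sided permutation test gave p = 0.1, again the smallest possible.

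GSR, the NADPH-dependent glutathione reductase that returns oxidized glutathione to its reduced form (gene on chromosome 8, 30678066 to 30727846), had 488.0, 495.4 and 507.3 CPM in si-SNHG17 libraries, against 521.2, 501.3 and 473.5 CPM in si-NC libraries. The 3 si-SNHG17 values lay inside the range of the si-NC values. The 95% interval of the log2 fold change was -0.16 to 0.15 (adjusted p = 0.965 by edgeR).

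GPX2, a selenium-containing glutathione peroxidase of epithelia, had 290.2, 308.5 and 285.1 CPM in si-SNHG17 libraries, against 614.1, 627.6 and 638.6 CPM in si-NC libraries. It was lower in each si-SNHG17 library than in each si-NC library. The level was 47.0% of control, with a log2 fold change of -1.09 and a standard error of 0.0714 (adjusted p = 7.63e-08 by edgeR). GPX2 lies on chromosome 14 from 64939158 to 64942745, where it overlaps the readthrough gene CHURC1-FNTB, whose own row held 181 to 246 counts per library. The GPX2 row held 2502 to 6819.

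**Figure D2:**
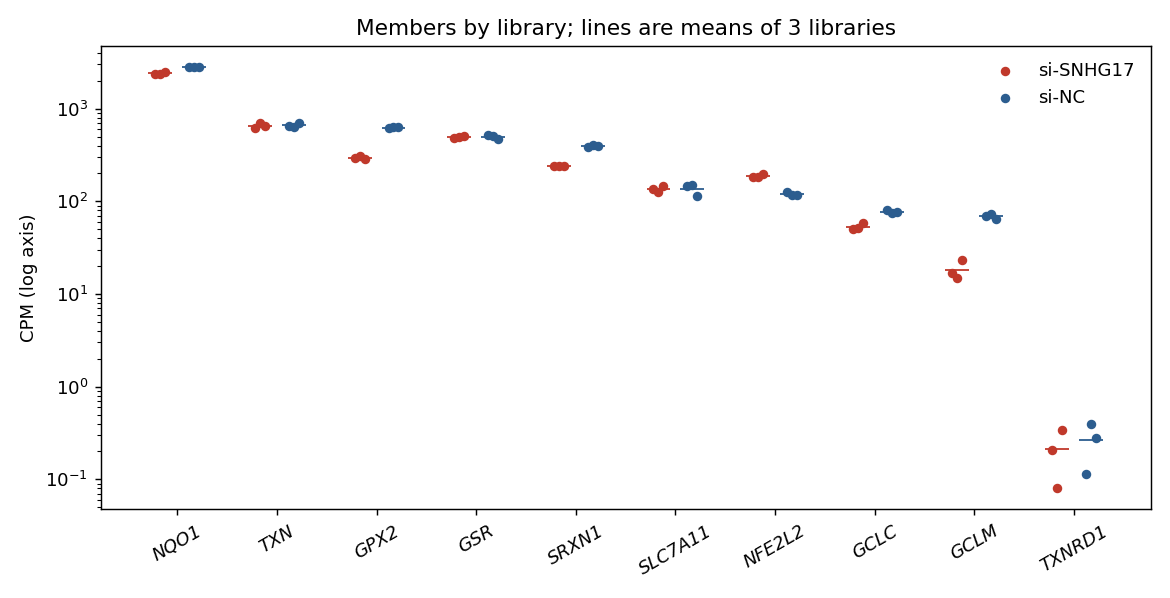
CPM of each member in each library (log axis), si-SNHG17 left and si-NC right within each gene; points are libraries and lines are means of 3. GCLM and GPX2 stand furthest apart, at 18.2 and 294.6 CPM in si-SNHG17, against 69.2 and 626.8 CPM in si-NC, and TXNRD1 lies under 0.4 CPM in all 6 libraries.

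TXN, the small thioredoxin that reduces protein disulfides (chromosome 9, 110243810 to 110256507), had 626.4, 699.2 and 645.8 CPM in si-SNHG17 libraries, against 644.8, 633.2 and 704.2 CPM in si-NC libraries. The groups overlapped over nearly their whole range. The log2 fold change was -0.01 with a 95% interval of -0.17 to 0.16 (adjusted p = 0.948 by edgeR). Rows of its pseudogenes by name (TXNP1 to TXNP7) together held 9.10% to 12.5% as many counts as TXN in si-SNHG17 libraries and 9.43% to 10.8% in si-NC libraries, and how shared reads were assigned is not known here. Adding them to TXN, an alternative chosen after the data were seen, gave a log2 fold change of 0.00084 (adjusted p = 0.995 by edgeR).

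SRXN1, sulfiredoxin, which repairs overoxidized peroxiredoxins, had 239.5, 239.5 and 240.9 CPM in si-SNHG17 libraries, against 385.7, 410.1 and 395.4 CPM in si-NC libraries. The 3 si-SNHG17 libraries were nearly identical and all lower than the si-NC libraries. Its log2 fold change of -0.73 had a standard error of 0.0702 (adjusted p = 2.68e-06 by edgeR), a level of 60.4% of control. SRXN1 lies on chromosome 20, as SNHG17 does, from 646615 to 653200, with SNHG17 at 38420588 to 38435328.

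TXNRD1 encodes the cytosolic thioredoxin reductase, a selenoprotein, and its row was close to empty. It had 2, 1 and 3 counts in si-SNHG17 libraries and 1, 4 and 3 counts in si-NC libraries. The sums were 6 in si-SNHG17 (exact 95% Poisson interval 2.20 to 13.1, counting error only) and 8 in si-NC (3.45 to 15.8). At this depth a difference was not detectable, and the ratio of TXNRD1 to TXN counts gave p = 0.6 by the exact two-sided permutation test. The genes TXNRD1-AS1, RPL18AP3 and EID3 overlap it in RefSeq (chromosome 12, 104215779 to 104350307). The RPL18AP3 row held 4731 to 10759 counts and the EID3 row 59, 108 and 83 counts in si-SNHG17 libraries, against 24, 35 and 29 in si-NC libraries. Whether reads of TXNRD1 were dropped or given to another row was not tested, so the row does not measure how much TXNRD1 transcript the cells held.

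NQO1, a quinone reductase and the most abundant member by CPM, fell the least among the members called that fell. The gene (chromosome 16, 69709401 to 69726560) had 2389, 2356 and 2460 CPM in si-SNHG17 libraries, against 2795, 2818 and 2815 CPM in si-NC libraries. The groups did not overlap, and the level was 85.5% of control. Its log2 fold change of -0.23 had a standard error of 0.0667 (adjusted p = 0.0154 by edgeR), and 63.6% of all genes tested changed by at least as much. The call was lost without si-SNHG17 replicate 1 (adjusted p = 0.0624) or si-SNHG17 replicate 2 (adjusted p = 0.051), while the log2 fold change ran from -0.24 to -0.19 over 16 alternatives, with adjusted p of 0.00637 to 0.0624.

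NFE2L2, which encodes NRF2 itself, was the member that rose. The gene (chromosome 2, 177230303 to 177264727) had 185.1, 181.0 and 199.1 CPM in si-SNHG17 libraries, against 125.9, 117.3 and 116.8 CPM in si-NC libraries. Each si-SNHG17 library was higher than each si-NC library. The rise was 1.57-fold in CPM, a log2 fold change of 0.65 (95% interval 0.48 to 0.82) with a standard error of 0.0781 (adjusted p = 1.84e-05 by edgeR). The counts measure its messenger RNA; NRF2 protein was not measured in these files.

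**Figure D3:**
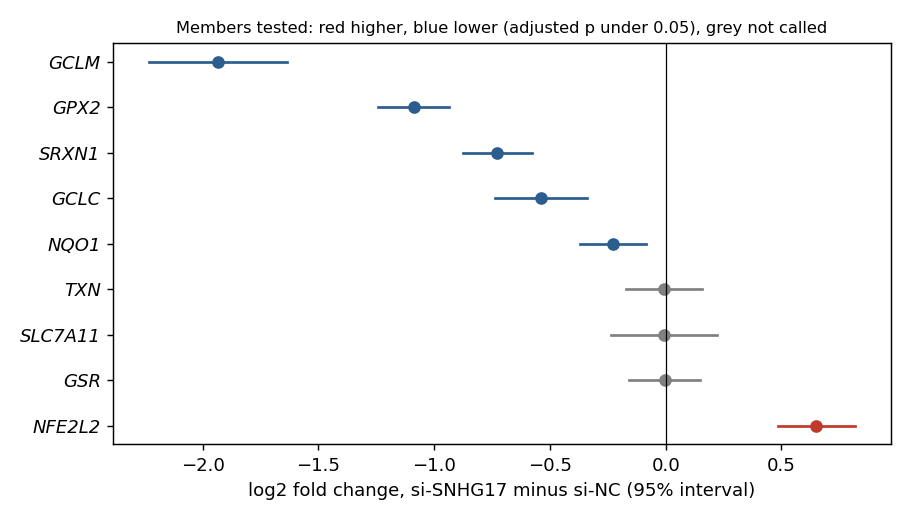
Log2 fold change of the 9 members tested, si-SNHG17 minus si-NC (horizontal axis), with 95% intervals of the edgeR fit; red is higher, blue lower at an adjusted p under 0.05 and grey not called. NFE2L2 lies at 0.65, TXN, SLC7A11 and GSR lie at 0 within 0.01, and the members that fell run from -0.23 for NQO1 to -1.93 for GCLM.

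Per length, as CPM per kilobase of exon in GENCODE release 29, the members spanned a wide range of levels. In si-SNHG17 the order was NQO1 (768.8), TXN (756.2), GPX2 (271.0), GSR (155.7), SRXN1 (88.9), NFE2L2 (41.6), SLC7A11 (14.1), GCLC (8.40), GCLM (3.72) and TXNRD1 (0.0416). In si-NC it was NQO1 (899.4), TXN (760.3), GPX2 (576.6), GSR (156.2), SRXN1 (147.2), NFE2L2 (26.5), SLC7A11 (14.1), GCLM (14.1), GCLC (12.2) and TXNRD1 (0.0521). The last place of TXNRD1 rests on 1 to 4 counts per library, and its row does not measure how much transcript the cells held. Among neighbours in these orders, the library ranges overlapped for NQO1 and TXN in si-SNHG17, and for GSR and SRXN1 and for SLC7A11 and GCLM in si-NC. The transcripts of the 2 ligase subunits changed places between the groups per length only, as GCLM had fewer counts than GCLC in every library. In si-NC, NQO1, TXN and GPX2 stood per length above 99.6%, 99.5% and 99.3% of the tested genes that had a length in GENCODE. The annotation the authors counted on is not given in the sources used here, and another gene length would move these levels.

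The genes that control NRF2 went both ways. Of 22 regulators, 21 were tested, 7 rose and 6 fell, against 19.6% of all genes tested higher and 19.6% lower. KEAP1 had 81.1 ± 5.38 CPM in si-SNHG17 and 85.5 ± 4.48 CPM in si-NC, and did not pass (log2 fold change -0.08, 95% interval -0.26 to 0.11). BACH1, the repressor that competes with NRF2, had 123.0, 122.2 and 130.7 CPM in si-SNHG17 libraries, against 47.8, 47.3 and 45.1 CPM in si-NC libraries. It rose 2.68-fold, with a log2 fold change of 1.42 and a standard error of 0.0833 (adjusted p = 2.76e-08 by edgeR). SQSTM1, the autophagy receptor p62 that can draw KEAP1 away from NRF2, rose to 3689 ± 66.5 CPM in si-SNHG17, against 1466 ± 173 CPM in si-NC (log2 fold change 1.33). MAFG, a small MAF partner shared by NRF2 and BACH1, rose slightly (log2 fold change 0.27, adjusted p = 0.0133 by edgeR), a call lost when 1 library was left out, with adjusted p = 0.0528 without si-SNHG17 replicate 1, 0.0615 without si-SNHG17 replicate 2 and 0.055 without si-NC replicate 1 (range over 16 alternatives 0.00378 to 0.0615). MAFF, another small MAF named after its values were seen, rose by 0.47 (adjusted p = 0.00928 by edgeR). MAFK had too few counts to be tested. DPP3 (-0.61) and PGAM5 (-0.52), both known to bind KEAP1, fell. The median log2 fold change of the 21 regulators was 0.09, against 0.01 for all genes tested.

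The rest of glutathione metabolism went both ways. Of 36 such genes outside the members, 30 were tested, 11 fell and 6 rose, with a median log2 fold change of -0.18. Of all genes tested, 19.6% fell and 19.6% rose. GSS, glutathione synthetase, the enzyme that follows glutamate-cysteine ligase, had 46.9, 50.9 and 49.8 CPM in si-SNHG17 libraries, against 151.4, 155.1 and 172.7 CPM in si-NC libraries. It fell by 1.70 on the log2 scale with a standard error of 0.0871 (adjusted p = 9.04e-09 by edgeR). The glutathione peroxidases other than GPX2 went both ways. GPX1 rose to 184.8 ± 15.7 CPM in si-SNHG17, against 108.0 ± 16.2 CPM in si-NC (log2 fold change 0.77), and GPX3 rose by 0.81. GPX4, which reduces lipid peroxides and was named after its values were seen, rose by 0.48 (adjusted p = 0.000162 by edgeR). GPX8, a peroxidase of the endoplasmic reticulum also named after its values were seen, fell by 0.44 (adjusted p = 0.00532 by edgeR).

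The thioredoxin, peroxiredoxin and sulfoxide repair genes were likewise divided. Of 20 outside the members, 19 were tested, 7 fell and 5 rose, against 19.6% of all genes tested lower and 19.6% higher. The median log2 fold change was -0.15, against 0.01 for all genes tested. TXNIP, which binds and inhibits thioredoxin, had 30.2, 45.7 and 33.3 CPM in si-SNHG17 libraries, against 9.56, 9.57 and 8.90 CPM in si-NC libraries (log2 fold change 1.97, adjusted p = 5.66e-07 by edgeR). The sestrins SESN1 (1.34) and SESN2 (0.89), stress-induced proteins, rose. The peroxiredoxins PRDX1 and PRDX3, which thioredoxins keep reduced, fell by 0.47 and 0.63 on the log2 scale. PRDX1 had 825.0 ± 35.7 CPM in si-SNHG17 and 1140 ± 51.9 CPM in si-NC, and PRDX3 had 230.4 ± 4.57 CPM in si-SNHG17 and 355.7 ± 4.06 CPM in si-NC.

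Of 30 other known NRF2 targets, 29 were tested, 11 fell and 4 rose, against 19.6% of all genes tested lower and 19.6% higher. The median log2 fold change of these targets was -0.17. PGD (-1.88), an enzyme of the pentose phosphate pathway that makes NADPH, ALDH3A1 (-1.54), an aldehyde dehydrogenase, and AKR1B10 (-1.35), an aldo-keto reductase, were the falls with the smallest p. HMOX1, a haem oxygenase, had 78.7, 82.9 and 76.6 CPM in si-SNHG17 libraries, against 37.7, 40.2 and 41.1 CPM in si-NC libraries (log2 fold change 1.00, adjusted p = 1.37e-06 by edgeR). FTH1, the ferritin heavy chain, named after its values were seen, rose by 0.96, while the ferritin light chain FTL, named on the same ground, fell by 0.21 (adjusted p = 0.0353 by edgeR). In each of the 6 lists the share of genes called, in either direction, is given beside the 39.1% of all genes tested. It was 61.9% for the regulators, 56.7% for glutathione metabolism, 63.2% for thioredoxin and peroxiredoxin genes, 51.7% for other targets, 33.3% for selenoprotein synthesis and 57.1% for superoxide and peroxide enzymes. The lists were chosen with earlier results of these data known, and their genes were not matched by count to all genes tested. These shares therefore do not measure enrichment.

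**Figure D4:**
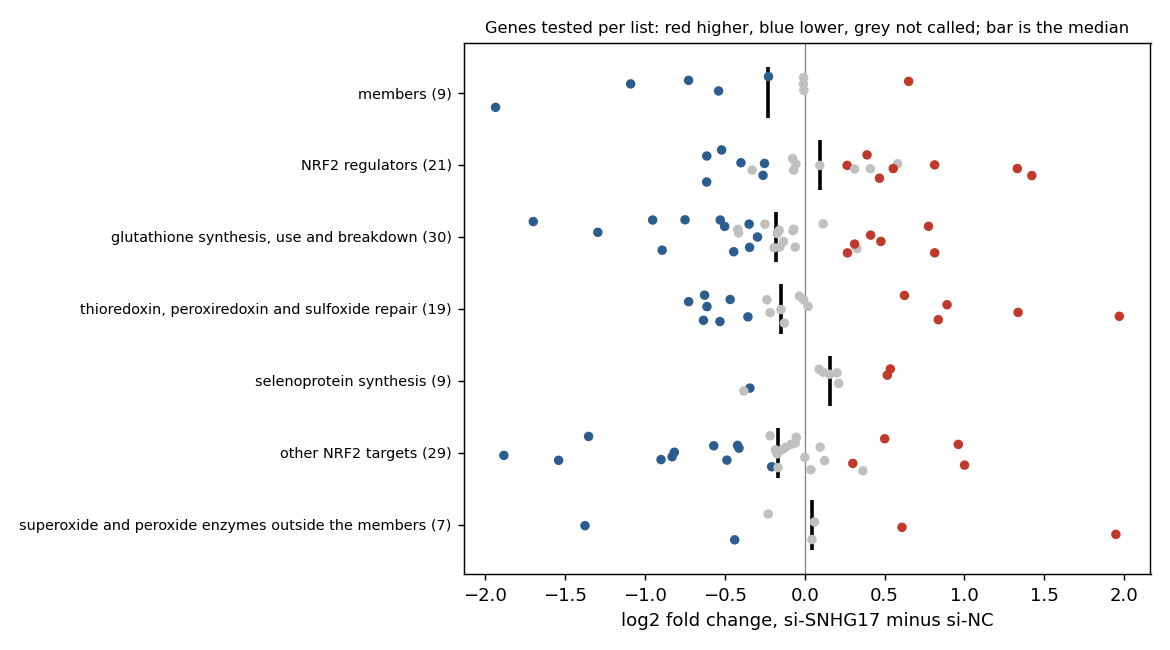
Log2 fold change, si-SNHG17 minus si-NC, of each gene tested in the members and in 6 lists (rows, number tested in brackets); red is higher, blue lower at an adjusted p under 0.05, grey not called, and bars are medians. The median is -0.23 for the members, 0.09 for the regulators and -0.17 for other NRF2 targets, and every list has genes called in both directions.

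The genes outside the members whose pattern over the 6 libraries was nearest to that of GCLM were PSAT1, LOC101928589, SERINC5, ERLIN1 and HADH. Nearness was the root mean square difference in log2(CPM + 0.5), centred on the si-NC mean. For these genes it was 0.114 to 0.172, among 11338 tested candidates with a mean of at least 5 CPM. Their log2 fold changes were -1.82, -1.87, -1.92, -1.92 and -1.88, near that of GCLM because they were chosen by this distance.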

How the data were processed

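Total RNA was sequenced as single-end reads on an Ion Proton after the Ion Total RNA-Seq Kit, per the labels' protocols. The values the authors deposited are whole-number counts of reads for each gene, with no normalization. The build was GRCh38, per the submitters' processing notes; no source used here gives the aligner, counter, annotation or use of strand.

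Genes that passed filterByExpr were compared with edgeR 4.0.16 in R 4.3.3 (TMM, glmQLFit, glmQLFTest, group as the only term), with Benjamini-Hochberg adjustment over all 15614 genes tested and a threshold of 0.05. Intervals are 95% intervals of this fit. The labels give no batch. No pair of libraries agreed within sampling noise (chi-square per degree of freedom 2.37 to 9.75 within groups). Libraries of like number were not taken as pairs. The procedure was tested on simulated data. Alternatives were other scalings and filters, DESeq2 1.42.0, limma-voom (limma 3.58.1), a replicate block and leaving out each library. Named genes were the members, their fixed partners, the 4 of smallest p per list and the 5 nearest to GCLM. The members and lists were chosen with earlier results of these data known, and no list was tested as a set. One immune marker is not reported here.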

Additional observations from a re-analysis of the deposited data

How the results depend on the processing

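GCLM, GPX2, SRXN1, GCLC and NFE2L2 kept direction and call in 16 alternatives, with GCLM from -2.12 to -1.80 on the log2 scale. Members called lower numbered 4 or 5, and NFE2L2 was the 1 higher, throughout. Genes called numbered 4911 to 6601 over the fits that left out a library, 5422 with DESeq2 and 5579 with the replicate block, which changed no member's call. Deviations from the group means correlated by 0.07, -0.13 and -0.11 between libraries with the same number, so the numbers were not taken as pairs. The ratios gave the same difference under the replicate block by construction, -1.405 for GCLM to GCLC, -0.375 for TXNRD1 to TXN and 0.748 for SLC7A11 to SLC3A2.

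The members near 0 changed sign without a call; the cause was not tested. With library totals only, SLC7A11, GSR and TXN were 0.0305, 0.0323 and 0.0302. With no filter they were 0.00847, 0.00883 and 0.0047. SLC7A11 was 0.00131 with limma-voom and 0.000395 with the replicate block, and TXN 0.00084 with its pseudogene rows. Leaving out each library gave -0.128 to 0.0643 for SLC7A11, -0.0425 to 0.0267 for GSR, -0.0524 to 0.0391 for TXN, -0.874 to 0.251 for TXNRD1 to TXN ratio, -0.239 to -0.21 for NQO1, -1.51 to -1.3 for GCLM to GCLC ratio and 0.546 to 0.852 for SLC7A11 to SLC3A2 ratio. The robust fit and the TXN sum were added after the data were seen. Of 673 values of single genes, 650 kept side and direction, 18 changed sign and 5 lost the threshold. Counts of 1 to 4 limit TXNRD1.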

Other observations

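Lists beside the pathway went both ways, as did all genes tested, of which 19.6% rose and 19.6% fell. Of 9 selenoprotein synthesis genes, all tested, 2 rose and 1 fell, or 33.3% called against 39.1% of all genes tested. Their median log2 fold change was 0.16, against 0.01 for all genes tested. SECISBP2 (0.54) and SECISBP2L (0.52), which bind or resemble the factor that binds the selenocysteine insertion element, rose, and SEPHS1 (-0.34) fell. TRNAU1AP had a log2 fold change of 0.21 (adjusted p = 0.29 by edgeR). Of 13 superoxide and peroxide enzymes outside the members, 7 were tested, 2 rose and 2 fell, or 57.1% called, with a median of 0.05. The mitochondrial superoxide dismutase SOD2 had 1282, 1289 and 1315 CPM in si-SNHG17 libraries, against 357.1, 301.7 and 348.5 CPM in si-NC libraries, while the cytosolic SOD1 fell by 0.44 on the log2 scale. CYBA, an NADPH oxidase subunit, rose by 0.61 and UCP2, a mitochondrial carrier, fell by 1.37.

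TXNRD1 was not the one near-empty row in this pathway. PRDX2, a cytosolic peroxiredoxin named after its values were seen, had 2 counts over the si-SNHG17 libraries and 4 over the si-NC libraries, against 7346 to 10678 counts of PRDX1 per si-SNHG17 library. The cause was not tested.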
